A study of Mus musculus with 21 samples.

Results

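The 32 genes described here are typical of Schwann cells and satellite glia, the peripheral glia that wrap the neurons of the cochlea. They were taken by symbol from a table of 21878 genes, all 32 were found there, and all 32 were among the 14968 genes with enough counts to be tested. Their roles put 10 of them in the myelin membrane, 7 in junctions and adhesion and 2 in the making of myelin lipids. A further 2 are transcription factors, 7 are ligands, receptors or secreted proteins, and 4 mark satellite or immature glia.

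Schwann cells form the myelin of peripheral axons, a stack of tightly packed membrane held by proteins such as MBP and PMP22 and rich in galactolipids. Axonal neuregulin acting on the receptor ErbB3, and the transcription factors SOX10 and EGR2, drive Schwann cells to survive and to myelinate. Satellite glia wrap neuronal cell bodies and buffer potassium around them, and in the spiral ganglion of rodents the cell bodies themselves become myelinated after birth.

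Spiral ganglion neurons, which carry sound signals to the brain, were collected from mouse cochleae on postnatal day 7. Each library held about 50 neurons drawn up by micropipette, made by the Smart-seq2 method from polyadenylated RNA. The neurons came from mice given an adeno-associated virus with a site-mutated HCN2 channel (DN-mHCN2, 4 apical and 3 basal libraries) or a truncated SK3 channel (truncated SK3, 3 apical and 3 basal), both meant to act in a dominant-negative way, or with EGFP alone in wild type (control, 4 apical and 4 basal). All groups thus carry a virus. The promoter in the virus and the cells it reaches are not given in the sources used here, nor are the animals behind each replicate, so that p-values measure the spread between these libraries.

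Library totals ran from 10411634 to 15138780 counts. Levels below are CPM, the share of a gene in the scaled library total. A gene is said to rise, to fall or to be called where its adjusted p passed a false discovery rate of 0.05 over all genes tested. In such pooled samples, fewer glial cells and less RNA per glial cell cannot be told apart.

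Glial RNA was abundant in libraries labelled as neurons. The 32 genes together took 10209 to 39562 CPM per library, beside 18882 to 36773 CPM for 24 neuronal marker genes. Mbp, for myelin basic protein, was the highest of all genes in 5 libraries, namely control base replicates 1, 3 and 4, DN-mHCN2 apex replicate 2 and truncated SK3 base replicate 1. Per kilobase of transcript, Pmp22 led the glial genes with a mean of 2975 CPM, followed by Mbp with 1229 CPM and the tetraspanin gene Cd9 with 675 CPM. Cnp, a myelin enzyme gene, averaged 504 CPM per kilobase, the lipid carrier gene Apoe 381 and the calcium-binding protein gene S100b 278. At the other end, Adgrg6, an adhesion receptor needed for myelination, averaged 1.30 CPM per kilobase, and Cntf, a neurotrophic factor, was at 0 in 3 libraries. The 9 markers of melanocytes, another neural crest lineage, summed to 24.6 to 103 CPM per library. The transcription factor gene Mitf carried 11.5 to 35.5 CPM of this, and Pmel and Dct reached 67.5 and 45.3 CPM in single libraries, while Tyr, Tyrp1 and Mlana reached at most 1.87, 0.848 and 2.03 CPM.

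**Figure D1:**
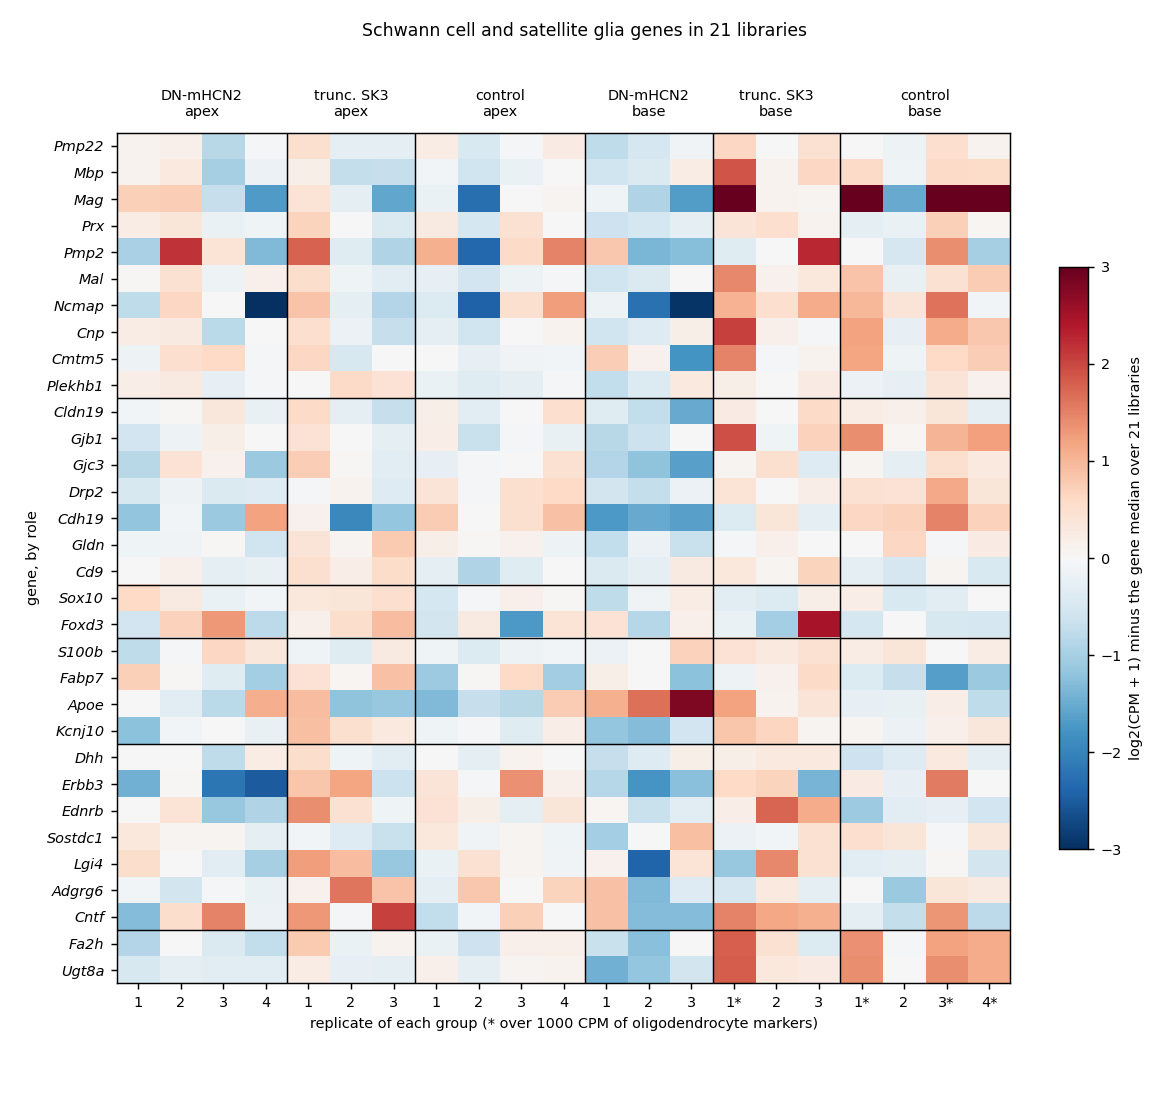
Levels of the 32 glial genes (rows, by role) in the 21 libraries (columns, by group), coloured by log2(CPM + 1) minus the gene's median over libraries; asterisks mark the 4 libraries rich in oligodendrocyte markers. Mag stands out in those 4, at 153 to 1172 CPM against at most 26.8 CPM in the other 17.

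Before any comparison, 4 basal libraries have to be set apart. Summed over 15 markers of oligodendrocytes, the myelinating cells of the central nervous system, truncated SK3 base replicate 1 held 4246 CPM, and control base replicates 1, 3 and 4 held 2002, 1471 and 1162 CPM. The other 17 libraries held 131 to 336 CPM. Mog, which oligodendrocytes make and Schwann cells hardly do, had 151 to 830 CPM in these 4 libraries and at most 0.888 CPM in the other 17. Of the 15 markers, 12 did not overlap between the 4 and the 17. The 4 were picked by the sum of these same 15 markers, so that this separation follows in part from the choice. Several of the 32 glial genes are shared by both kinds of myelinating cell, and Mag, Gjb1, Cnp, Fa2h and Ugt8a, named here for this pattern after their values were seen, were each higher in all 4 libraries than in any of the other 17. Over all tested genes, 95 had that pattern (0.635%). Mag, an adhesion protein of the inner myelin membrane, had 153 to 1172 CPM in the 4 libraries and 2.47 to 26.8 CPM in the other 17. Since 3 of the 4 control base libraries are among them, the calls that use that group are also given without the 4, where the single control base library left is assumed to vary like the other groups.

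**Figure D2:**
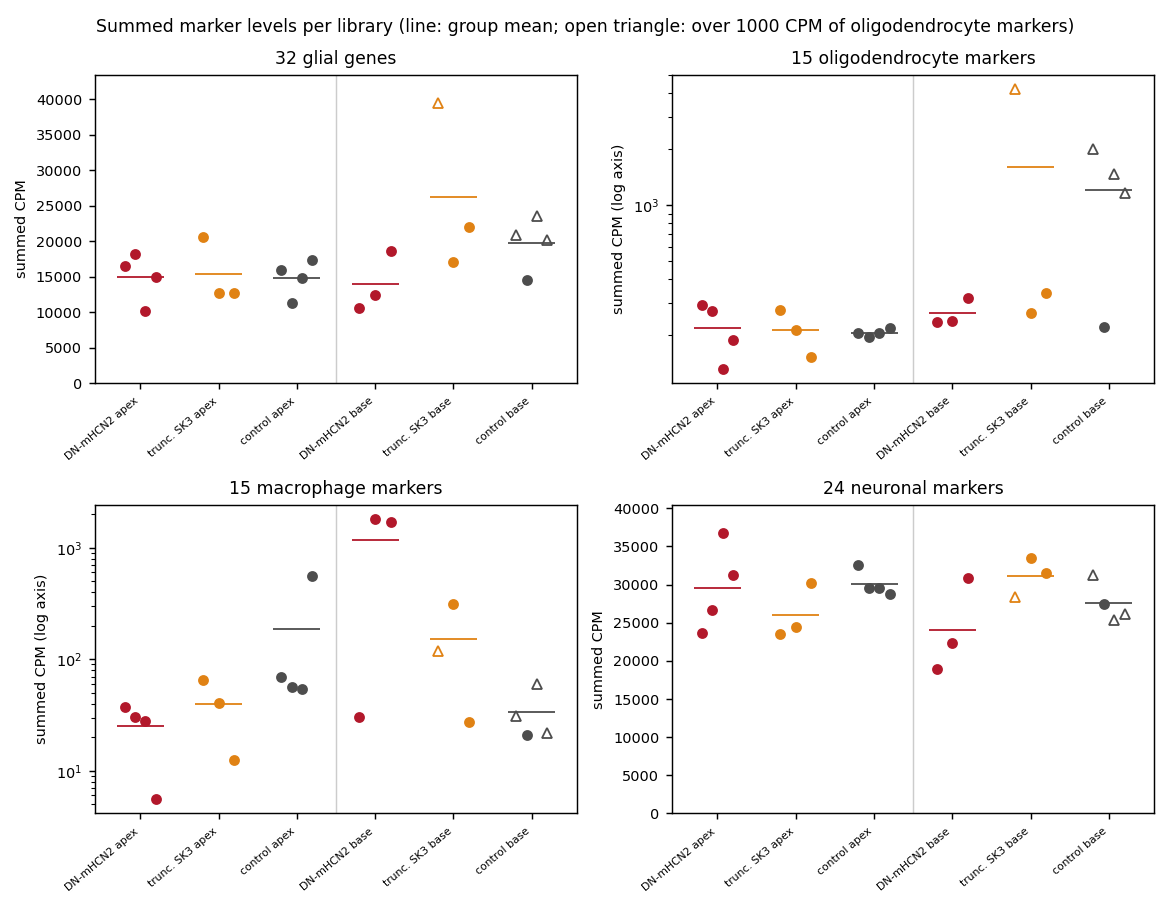
Summed CPM per library of the 32 glial genes and of oligodendrocyte, macrophage and neuronal markers, by group, with 1 point per library, a line at the group mean and log axes for oligodendrocyte and macrophage markers. The open triangles are truncated SK3 base replicate 1 and control base replicates 1, 3 and 4, whose oligodendrocyte sums exceed 1000 CPM.

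The promoters of Ugt8a, Kcnj10 and Gjc3 are shown because these genes fell together in DN-mHCN2 base and are in the RefSeq promoter table (GRCm38.p6), which matched 23 of the 32 genes. Each line gives the 250 bases before the annotated start, with capitals where a SOX core, CAAAG or CAATG on either strand, was found.
Ugt8a promoter, chr3:125938653-125938902, minus strand: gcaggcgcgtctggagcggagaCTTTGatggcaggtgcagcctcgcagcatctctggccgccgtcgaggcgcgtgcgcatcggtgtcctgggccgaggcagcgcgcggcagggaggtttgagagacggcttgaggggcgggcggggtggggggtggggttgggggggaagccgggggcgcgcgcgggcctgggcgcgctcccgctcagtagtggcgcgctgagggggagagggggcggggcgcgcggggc
Kcnj10 promoter, chr1:172340960-172341209, plus strand: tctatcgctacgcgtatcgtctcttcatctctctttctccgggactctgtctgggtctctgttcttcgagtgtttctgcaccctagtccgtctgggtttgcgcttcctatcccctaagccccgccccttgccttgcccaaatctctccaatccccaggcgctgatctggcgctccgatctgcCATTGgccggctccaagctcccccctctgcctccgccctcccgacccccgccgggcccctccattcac
Gjc3 promoter, chr5:137963099-137963348, minus strand: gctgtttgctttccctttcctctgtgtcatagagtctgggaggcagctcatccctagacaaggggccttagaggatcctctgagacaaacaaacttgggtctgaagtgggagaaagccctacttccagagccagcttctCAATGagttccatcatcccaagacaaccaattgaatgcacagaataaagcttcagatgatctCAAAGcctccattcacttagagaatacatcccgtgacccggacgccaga
Ugt8a and Kcnj10 have 1 match each, both on the other strand (CTTTG and CATTG as printed), and Gjc3 has 2. Such short letters are common: 23 of 37 promoters of the glial genes held a match (62.2%), against 65% of 32851 promoters of all genes. The EGR core GTGGGCG was in 3 of the 37 (8.11%), against 7.02% of all. Neither share of the glial promoters is far from the share of all promoters.

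Over both regions, DN-mHCN2 neurons had lower levels than control neurons of 7 of the 32 glial genes and higher levels of none. The genes were Drp2, Ugt8a, Cdh19, Erbb3, Kcnj10, Gldn and Gjc3, which serve the glial surface, its junctions and myelin lipid synthesis. In this comparison, 6.05% of all tested genes were called by edgeR's quasi-likelihood test, 3.61% as lower. Log2 fold changes of the 32 had a median of -0.30, and 24 of 32 were below 0, while the median over all genes was 0.03 with 47.5% below 0. Among the 32, the compact myelin genes Mbp, Pmp22, Mal and Pmp2 were not called, nor was Prx.

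Drp2 encodes a dystrophin-related protein that anchors the Schwann cell surface to the basal lamina. Its level was 67.3, 85.1, 69.8 and 72.7 CPM in DN-mHCN2 apex, against 125, 90.3, 132 and 145 CPM in control apex. In the base it was 64.9, 57.6 and 83.7 CPM in DN-mHCN2, against 129.5, 128, 211 and 122 CPM in control. Neither region's groups overlapped, and control base replicate 3 was the highest library. Drp2 differed by -0.92 on the log2 scale over both regions, with an SE of 0.145 (edgeR adjusted p = 0.000755). It stayed below the threshold with each library left out in turn and without the 4 oligodendrocyte-rich libraries (-0.82, edgeR adjusted p = 0.0449), but correcting for GC content and for the length of the transcript gave -0.51 (edgeR adjusted p = 0.126). In the base alone it differed by -1.10 (SE 0.216, edgeR adjusted p = 0.0104), and by -0.98 without DN-mHCN2 base replicate 2 (edgeR adjusted p = 0.0580).

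Ugt8a makes galactosylceramide, the main galactolipid of myelin. It had 225, 259, 254 and 252 CPM in DN-mHCN2 apex and 352, 258, 333 and 337 CPM in control apex. In the base, DN-mHCN2 libraries had 116, 139.6 and 216 CPM, and control libraries had 834, 315, 832 and 687 CPM. The apical groups touched at control replicate 2, and the basal groups did not overlap. Over both regions its change was -1.23 (SE 0.236, edgeR adjusted p = 0.00474), and in the base it was -2.09 (SE 0.361, edgeR adjusted p = 0.00526). Without the 4 oligodendrocyte-rich libraries these values were -0.686 and -0.996 (edgeR adjusted p = 0.111 and 0.543). Without both DN-mHCN2 base libraries rich in macrophage markers, the basal value was -2.49 (edgeR adjusted p = 0.0609), in a fit with 1 DN-mHCN2 base library, assumed to vary like the other groups.

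Gjc3, which encodes the connexin Cx29 of myelinating Schwann cells, fell to 39.6, 31.5 and 23.2 CPM in DN-mHCN2 base, against 78.8, 59.7, 104 and 91.1 CPM in control base. In the apex it had 41.2, 100.4, 80.4 and 33.5 CPM in DN-mHCN2 and 62.5, 70.8, 73.8 and 101 CPM in control. The basal groups were separate and the apical ones overlapped. The fold change was -0.84 over both regions (SE 0.235, edgeR adjusted p = 0.0389) and -1.41 in the base (SE 0.353, edgeR adjusted p = 0.0439). Of 15 fits that each left out 1 library, the first call held in 4 (without control base replicate 2, DN-mHCN2 apex replicate 2 or 3, or DN-mHCN2 base replicate 1), with adjusted p up to 0.0937 in the others. The basal call held in 1 of 7 (without DN-mHCN2 base replicate 1), with adjusted p up to 0.145. Neither call held without the 4 oligodendrocyte-rich libraries (-0.60 and -0.91, edgeR adjusted p = 0.505 and 0.784).

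Kcnj10 encodes Kir4.1, the inward rectifier potassium channel of satellite glia. Its levels were 66.4, 60.6 and 101 CPM in DN-mHCN2 base, against 159.9, 132, 167 and 191 CPM in control base. In the apex they were 63.3, 143, 150.2 and 128 CPM in DN-mHCN2, against 137, 146, 116 and 174 CPM in control. The basal groups did not overlap, and in the apex DN-mHCN2 replicate 1 alone lay below all control libraries. Its log2 fold change came to -0.67 over both regions (SE 0.179, edgeR adjusted p = 0.0310) and -1.10 in the base (SE 0.267, edgeR adjusted p = 0.0381). Leaving out control apex replicate 1 or 4, control base replicate 4, or DN-mHCN2 base replicate 1 or 2 ended the call over both regions, with adjusted p of at most 0.0835. The basal call held in 2 of 7 such fits (without control base replicate 2 or DN-mHCN2 base replicate 3), with adjusted p up to 0.133. Both calls were lost without the 4 oligodendrocyte-rich libraries, at -0.52 over both regions and -0.79 in the base (edgeR adjusted p = 0.431 and 0.768).

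Erbb3, the neuregulin receptor of Schwann cells, was low in every group. It had 4.64, 14.6, 2.41 and 1.72 CPM in DN-mHCN2 apex against 18.96, 13.6, 38.4 and 15.8 CPM in control apex. Basal libraries had 7.37, 3.43 and 5.41 CPM in DN-mHCN2 against 16.9, 11.9, 43.6 and 14.2 CPM in control. Only DN-mHCN2 apex replicate 2 reached into the control range of its region. The change taken over both regions came to -1.94 (SE 0.489, edgeR adjusted p = 0.0231). The apical value was -1.89, the basal value was close to it, and neither was called (edgeR adjusted p = 0.262 and 0.141). Without control base replicate 3, DN-mHCN2 base replicate 2 or DN-mHCN2 base replicate 3, the adjusted p over both regions was 0.0527, 0.0662 and 0.0528, and without the 4 oligodendrocyte-rich libraries the change was -1.51 (edgeR adjusted p = 0.338).

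Cdh19, a cadherin first known from Schwann cell precursors, had 1.94, 2.41 and 2.11 CPM in DN-mHCN2 base against 13.9, 14.6, 25.99 and 14.5 CPM in control base. In the apex it had 3.27, 8.10, 3.48 and 21.2 CPM in DN-mHCN2 and 15.4, 8.64, 12.5 and 16.6 CPM in control. The 3 basal DN-mHCN2 libraries lay far below control, while DN-mHCN2 apex replicate 4 was above every control apex library. Its log2 fold change came to -1.78 over both regions (SE 0.436, edgeR adjusted p = 0.0199), with the call kept in all 15 fits that left out 1 library but lost without the 4 oligodendrocyte-rich libraries (-1.65, edgeR adjusted p = 0.269). The basal value was -2.999 (SE 0.686, edgeR adjusted p = 0.0269), and 2 of 7 such fits kept the call (without control base replicate 1 or 2), with adjusted p up to 0.0848 in the others.

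Gldn encodes gliomedin, the Schwann cell ligand that gathers sodium channels at nodes of Ranvier. Its level was 241, 246, 272 and 176 CPM in DN-mHCN2 apex, against 298, 270.4, 290.0 and 238 CPM in control apex. Basal values were 158, 234 and 168 CPM in DN-mHCN2, against 266, 407, 257 and 318 CPM in control. Groups overlapped in the apex and were separate in the base. Its change was the smallest of the 7, at -0.49 over both regions (SE 0.134, edgeR adjusted p = 0.0370), and the call held in 5 of 15 fits that left out 1 library (control apex replicate 4, control base replicate 1 or 3, DN-mHCN2 apex replicate 3 or DN-mHCN2 base replicate 2), with adjusted p up to 0.0772. It was -0.68 without the 4 oligodendrocyte-rich libraries (edgeR adjusted p = 0.109).

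**Figure D3:**
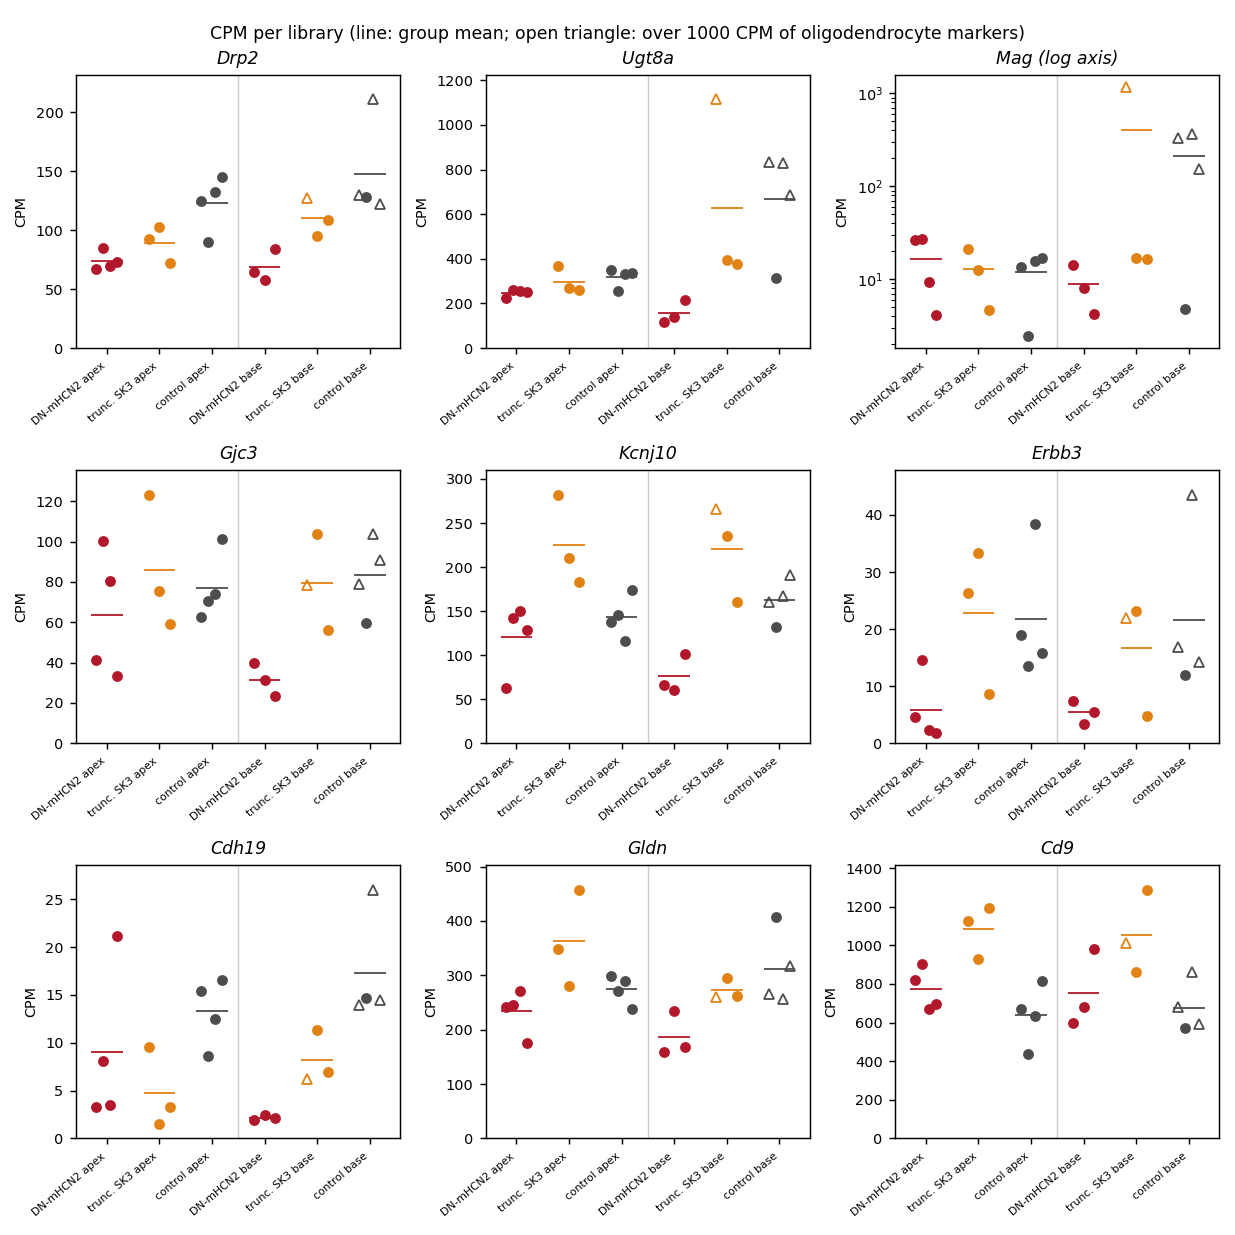
CPM per library of Mag (log axis) and of the 8 glial genes called in any comparison, by group, with 1 point per library, a line at the group mean and open triangles for the 4 libraries rich in oligodendrocyte markers. In DN-mHCN2 base, Drp2 lies at 57.6 to 83.7 CPM and Cdh19 at 1.94 to 2.41 CPM, below all control base libraries.

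Taken by region, the calls lay in the base. There, 5 of the 32 genes fell (Ugt8a, Drp2, Cdh19, Kcnj10 and Gjc3) and none rose, against 2.14% of all genes called and 1.3% called lower, and the median log2 fold change of the 32 was -0.63. In the apex edgeR called none of the 32, against 0.2% of all genes. There 2 of the 32 had an unadjusted p under 0.05, DESeq2 called 1 (Drp2) and limma-voom called 0. The apical median was -0.01, with 16 of 32 genes below 0. The difference between the regional effects was tested directly: edgeR called none of the 32, against 0.00668% of all genes, although 9 had an unadjusted p under 0.05. DESeq2 called Ugt8a alone in that test, and limma-voom called 0. The basal effect on Ugt8a minus the apical one was -1.72 on the log2 scale (SE 0.466, edgeR adjusted p = 0.295).

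Single libraries bore on these counts. Over both regions 4 of the 32 were called without control apex replicate 1, control base replicate 4 or DN-mHCN2 base replicate 2. In the base 2 were called without control base replicate 3, control base replicate 4 or DN-mHCN2 base replicate 2, and 3 without control base replicate 1 or DN-mHCN2 base replicate 3.

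Without the 4 oligodendrocyte-rich libraries, 1 of the 32 genes was called over both regions (Drp2), against 0.351% of all genes, and none in the base, against 0.0626% of all genes. The median over the 32 was then -0.03 over both regions and -0.10 in the base. The median over the 10 myelin membrane genes over both regions was -0.30 with all libraries and 0.11 without the 4. The 7 junction and adhesion genes had medians of -0.72 and -0.60, with 6 of 7 below 0 both times. Mag had a basal log2 fold change of -4.58 with all libraries (edgeR adjusted p = 0.137) and 0.89 without the 4. Cdh19, Gldn and Drp2 still had basal values of -2.75, -1.12 and -0.89, with edgeR adjusted p of 0.659, 0.415 and 0.587. In these data the part of oligodendrocyte RNA in the basal calls was not tested beyond these values.

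**Figure D4:**
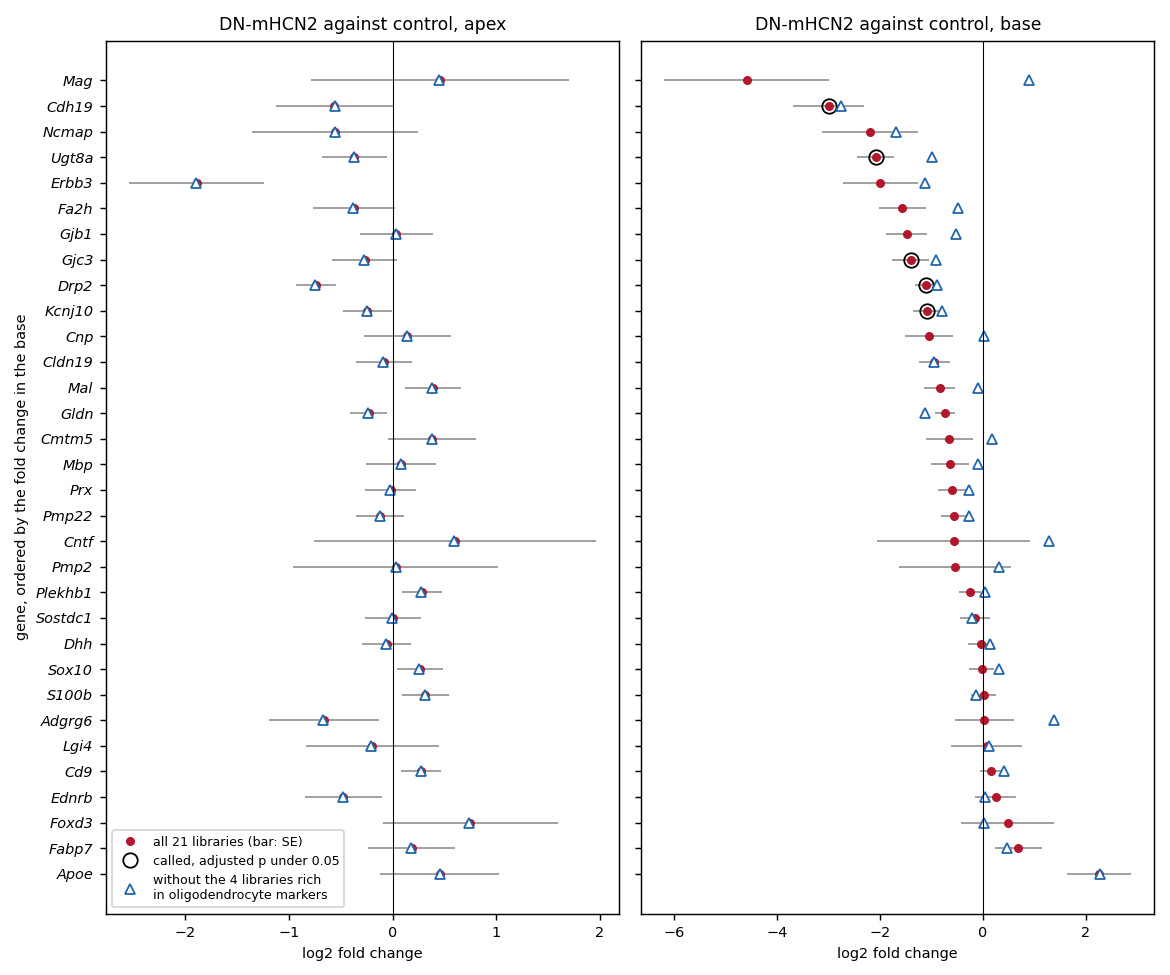
Log2 fold changes of the 32 glial genes for DN-mHCN2 against control in the apex and in the base, with all 21 libraries (filled points, bars for SE, ringed where called) and without the 4 oligodendrocyte-rich libraries (triangles). In the base Ugt8a, Drp2, Cdh19, Kcnj10 and Gjc3 are ringed, and the triangle of Mag lies at 0.89 beside its point at -4.58.

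Markers of other cells were also high in some DN-mHCN2 libraries, though not in all libraries of a group. Macrophage markers, 15 genes, summed to 30.1, 1816 and 1704 CPM in the 3 DN-mHCN2 base libraries, against 20.9 to 59.7 CPM in control base. Fibroblast markers reached 8236 CPM in DN-mHCN2 base replicate 1, and supporting cell markers 10352 CPM in DN-mHCN2 apex replicate 1, against at most 3823 and 2304 CPM in control libraries. Leaving out both macrophage-rich libraries left 3 of the 32 genes called over both regions (Drp2, Ugt8a and Sostdc1), against 2.95% of all genes in that fit, and none in the base, against 0.64%, with 1 DN-mHCN2 base library in the fit. Leaving out the fibroblast-rich and the supporting cell-rich library left 2 called over both regions (Drp2 and Ugt8a), against 5.29% of all genes, and 8 in the base, against 5.68%. Their part in the falls was not tested beyond these counts.

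The 3 most abundant myelin membrane genes were not called under DN-mHCN2. Mbp had 5516, 6313, 2585 and 4592 CPM in DN-mHCN2 apex, against 4881, 3420.0, 4491 and 5145 CPM in control apex. Basal libraries had 3386, 3839 and 5958 CPM in DN-mHCN2, against 7674, 4711, 7656 and 7528 CPM in control, where the 3 high libraries are oligodendrocyte-rich. The groups overlapped in both regions, and the change over both came to -0.28 (SE 0.249, edgeR adjusted p = 0.555). Pmp22 had 5775, 5914, 3015 and 5131 CPM in DN-mHCN2 apex, against 6194, 3902, 5133 and 6311 CPM in control apex. In the base its values were 3128, 3785 and 4917 CPM in DN-mHCN2, against 5337, 4807, 7608 and 5726 CPM in control. Its change was -0.35 (SE 0.170, edgeR adjusted p = 0.239). Both regions overlapped for Pmp22 as well. Neither gene was called without the 4 oligodendrocyte-rich libraries, where the changes were -0.20 for Pmp22 and -0.01 for Mbp.

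Cnp had 1103, 1146, 542 and 935 CPM in DN-mHCN2 apex, against 778, 628, 944 and 1023 CPM in control apex. Basal values were 628, 721 and 1058 CPM in DN-mHCN2, against 2170.3, 794, 2032 and 1645 CPM in control, with the 3 oligodendrocyte-rich libraries again on top. Its groups overlapped in both regions, and the change was -0.45 (SE 0.308, edgeR adjusted p = 0.425), or 0.08 without those libraries and truncated SK3 base replicate 1 (edgeR adjusted p = 0.972).

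Among transcription factors, Sox10, which sets glial identity, had 163, 131, 94.1 and 102 CPM in DN-mHCN2 apex against 74.4, 104, 119.6 and 111 CPM in control apex. Basal values were 63.7, 99.9 and 126 CPM in DN-mHCN2 against 123, 78.4, 84.3 and 108 CPM in control. The groups overlapped in both regions, and the change was 0.12 (SE 0.163, edgeR adjusted p = 0.724). Sox10 varied by at most 2.56-fold over all 21 libraries. Foxd3, a factor of early neural crest glia, lay between 0.407 and 24.96 CPM.

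Satellite and immature glia genes did not move as one. Apoe had 723, 1080.2 and 2397 CPM in DN-mHCN2 base, against 287, 292, 395 and 203 CPM in control base. It had 343, 276, 195 and 729 CPM in DN-mHCN2 apex, against 137, 211, 191 and 586 CPM in control apex. All basal DN-mHCN2 libraries exceeded all basal controls, yet the call was missed in the base (2.25, SE 0.624, edgeR adjusted p = 0.0674) and over both regions (1.35, SE 0.423, edgeR adjusted p = 0.0655). DESeq2 called Apoe higher in both of these comparisons. Macrophages also make Apoe, and DN-mHCN2 base replicates 2 and 3, with 1080.2 and 2397 CPM of Apoe, are the macrophage-rich libraries named above. DN-mHCN2 base replicate 1, with 723 CPM of Apoe, held 30.1 CPM of macrophage markers and is the fibroblast-rich library, and the part of either marker set in the Apoe values was not tested. S100b had 222, 362, 577 and 479 CPM in DN-mHCN2 apex, against 343, 281, 336 and 356 CPM in control apex. Basal values were 333, 375 and 612 CPM in DN-mHCN2, against 442, 487, 376 and 438 CPM in control. The DN-mHCN2 libraries spread wider than control in both regions, with a change of 0.17 (SE 0.167, edgeR adjusted p = 0.616). Fabp7, a fatty acid-binding protein of immature and satellite glia, ran from 17.9 to 72.4 CPM in DN-mHCN2 and from 13.1 to 66.2 CPM in control.

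Sostdc1, a secreted inhibitor of BMP and Wnt signalling, was the highest of the ligand and receptor group. It had 478, 403, 406 and 311 CPM in DN-mHCN2 apex and 189, 384 and 716 CPM in DN-mHCN2 base. Control libraries had 478, 357, 408 and 351 CPM in the apex and 547, 498, 373 and 490.1 CPM in the base. The DN-mHCN2 base libraries spread on both sides of control, and the change, with both regions taken, came to -0.07 (SE 0.198, edgeR adjusted p = 0.876).

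Truncated SK3 neurons had higher levels than control of 1 of the 32 glial genes, Cd9, a tetraspanin of the Schwann cell surface, and lower levels of none, while 0.735% of all genes were called and 0.327% called higher. Cd9 had 1128, 927 and 1195 CPM in truncated SK3 apex, against 669, 436, 635 and 813 CPM in control apex. In the base it had 1012, 860.5 and 1287 CPM in truncated SK3, against 679, 574, 860.0 and 594 CPM in control. The groups did not overlap in either region, although control base replicate 3 came within 1 CPM of truncated SK3 base replicate 2. Over both regions, Cd9 differed by 0.70 on the log2 scale, with an SE of 0.148 (edgeR adjusted p = 0.0231). The call held in 5 of 14 fits that left out 1 library (control apex replicate 2 or 4, control base replicate 3, truncated SK3 apex replicate 2 or truncated SK3 base replicate 2), with adjusted p up to 0.0917, and was lost without the 4 oligodendrocyte-rich libraries, where the value was 0.83 (edgeR adjusted p = 0.333). In DN-mHCN2, Cd9 had 599 to 979 CPM.

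The 32 genes had a median log2 fold change of 0.20 under truncated SK3 over both regions, with 25 of 32 above 0, while the median over all genes was 0.01. Without the 4 oligodendrocyte-rich libraries the median of the 32 was 0.28, and none was called, against 0.156% of all genes. Ednrb, the endothelin receptor that marks immature and non-myelinating glia, was named here after its values were seen. It had 151, 77.6 and 51.6 CPM in truncated SK3 apex and 64.8, 189.5 and 123 CPM in truncated SK3 base. Control had 76.3, 63.5, 45.5 and 72.9 CPM in the apex and 25.8, 45.3, 47.4 and 37.3 CPM in the base. Its basal groups did not overlap, but edgeR did not call it over both regions (1.11, SE 0.280, adjusted p = 0.0776), whereas DESeq2 did. In the apex edgeR called none of the 32, against 0.254% of all genes, with 5 at an unadjusted p under 0.05, 1 called by DESeq2 (Cd9) and 0 by limma-voom. In the base edgeR called none, against 0.147% of all genes, with 3 at an unadjusted p under 0.05, 1 called by DESeq2 (Ednrb) and 0 by limma-voom. In the test of base against apex in the effect of truncated SK3, edgeR called none of the 32 and 0% of all genes, 1 of the 32 had an unadjusted p under 0.05, and DESeq2 and limma-voom called 0.

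The genes that fell under DN-mHCN2 were not called under truncated SK3, in comparisons that share the control libraries. Drp2 had 92.98, 103 and 72.1 CPM in truncated SK3 apex and 127, 94.9 and 109 CPM in truncated SK3 base, a change of -0.44 over both regions (edgeR adjusted p = 0.254). Gjc3 had 123, 75.4 and 59.3 CPM in the apex and 78.5, 104 and 56.3 CPM in the base of truncated SK3. Both genes lay partly within the control range. Erbb3 had 26.2, 33.4 and 8.67 CPM in truncated SK3 apex and 21.9, 23.2 and 4.74 CPM in truncated SK3 base. Cdh19 had 9.60, 1.51 and 3.28 CPM in the apex and 6.22, 11.4 and 6.96 CPM in the base. Erbb3 overlapped control in both regions, whereas Cdh19 lay below every control library in the base only. Gldn had 349, 281 and 457 CPM in truncated SK3 apex and 261, 294 and 262 CPM in truncated SK3 base. Kcnj10 had 282, 210.3 and 183 CPM in the apex and 266, 235 and 159.9 CPM in the base, with a change of 0.55 over both regions (edgeR adjusted p = 0.244). In the apex all Kcnj10 values exceeded control, and in the base they overlapped it.

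Abundant glial genes spread widely under truncated SK3 too. Pmp22 had 7449, 4408 and 4355 CPM in truncated SK3 apex and 8188, 5326 and 7365 CPM in truncated SK3 base, and Mbp had 5819, 3119 and 3203 CPM and 19031, 5536 and 7876 CPM. Cnp had 1346, 841 and 586 CPM in the apex and 3926, 1054 and 911 CPM in the base. Replicate 1 was the highest of its group for all 3 genes in both regions. Apoe had 657, 148 and 156 CPM in the apex and 793, 369 and 451 CPM in the base, with replicate 1 again on top. Sox10 had 135, 140.0 and 154 CPM in truncated SK3 apex, all above control apex, and 85.96, 80.7 and 121 CPM in truncated SK3 base, within the control range. S100b had 344, 292 and 454 CPM in the apex and 510.1, 464 and 516 CPM in the base, and Sostdc1 had 363, 294 and 242 CPM and 343, 363 and 527 CPM. Neither was called.

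DN-mHCN2 and truncated SK3 were also set against each other, a comparison that uses no control library. DN-mHCN2 had lower levels of Kcnj10 and Ugt8a, and higher levels of none of the 32 genes, while 0.655% of all genes were called and 0.434% called lower. Kcnj10 had 63.3 to 150.2 CPM in DN-mHCN2 apex and 60.6 to 101 CPM in DN-mHCN2 base, against 183 to 282 CPM in the apex and 159.9 to 266 CPM in the base of truncated SK3. No DN-mHCN2 library reached the lowest truncated SK3 library. Its log2 fold change came to -1.22 (SE 0.191, edgeR adjusted p = 0.00418) and the call held in all 13 fits that left out 1 library, but not without the 4 oligodendrocyte-rich libraries, 1 of which is in this comparison (-1.13, edgeR adjusted p = 0.0695), or with the libraries of these 4 groups fitted alone (-1.21, edgeR adjusted p = 0.0740).

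Ugt8a had 225 to 259 CPM in DN-mHCN2 apex, against 368, 267 and 259 CPM in truncated SK3 apex. Its level was 116 to 216 CPM in DN-mHCN2 base, against 1115, 394 and 375 CPM in truncated SK3 base. The basal groups were apart by more than the spread of the DN-mHCN2 libraries. The change was -1.13 (SE 0.248, edgeR adjusted p = 0.0349), and it was -0.78 without truncated SK3 base replicate 1 (edgeR adjusted p = 0.109). The call held in 4 of 13 fits that left out 1 library (DN-mHCN2 apex replicate 3, DN-mHCN2 base replicate 3, or truncated SK3 base replicate 2 or 3). Over the 32 genes the median was -0.56, with 30 of 32 below 0, against 49.5% of all genes below 0. Each construct was thus compared with the other and, above, with the same control libraries, so that the 3 sets of values are not independent.

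Between base and apex, edgeR called none of the 32 genes in any condition. In control, 0% of all genes were called, 6 of the 32 had an unadjusted p under 0.05, DESeq2 called 1 (Mag) and limma-voom called 0. Under DN-mHCN2, 0.214% of all genes were called, 5 of the 32 had an unadjusted p under 0.05, and DESeq2 and limma-voom called 0. Under truncated SK3, 0.0134% of all genes were called, 7 of the 32 had an unadjusted p under 0.05, DESeq2 called 2 (Mbp and Mag) and limma-voom called 0. Mag had 327, 4.81, 368 and 153 CPM in control base, against 13.5, 2.47, 15.7 and 16.7 CPM in control apex. It had 1172, 16.9 and 16.6 CPM in truncated SK3 base, against 21.3, 12.7 and 4.63 CPM in truncated SK3 apex. The high libraries are the 4 oligodendrocyte-rich ones, and the basal libraries outside them lay within 4.22 to 16.9 CPM. The fold changes were 4.14 in control (SE 1.38, edgeR adjusted p = 0.741) and 4.96 under truncated SK3 (SE 1.65, edgeR adjusted p = 0.381), against -1.33 and 0.38 without the 4. In that fit none of the 32 was called between base and apex in control, as with all libraries. Mbp reached 19031 CPM in truncated SK3 base replicate 1, against 5536 and 7876 CPM in the other basal truncated SK3 libraries and 3119 to 5819 CPM in the apical ones.

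A wider list of 52 other genes of Schwann cell biology, of which 51 were tested, holds myelin proteins, axonal partners and signalling genes. Under DN-mHCN2 over both regions, 6 of the 51 fell, Adam22, Sh3tc2, Nfasc, Nrg1 and Aatk among them, and 1 rose (Egr1), beside 6.05% of all genes called and 3.61% called lower. The median log2 fold change of the 51 was -0.34. None of these calls held without the 4 oligodendrocyte-rich libraries. Sh3tc2, a Schwann cell gene of endosomal recycling, had 3.48, 4.73 and 5.32 CPM in DN-mHCN2 base, against 19.4, 15.4, 36.03 and 24.4 CPM in control base, with no overlap. Its change, with both regions taken, came to -1.57 (SE 0.345, edgeR adjusted p = 0.0108), and without the 4 libraries it was -1.25 (edgeR adjusted p = 0.278).

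Adam22, a receptor of LGI proteins, Nfasc, a cell adhesion molecule of nodes and paranodes, and Nrg1, the neuregulin that activates ErbB receptors, are also made by neurons, so their level here is not that of glia alone. Their changes over both regions were -1.18 for Adam22 (edgeR adjusted p = 0.00300), -1.06 for Nfasc (edgeR adjusted p = 0.0117) and -0.63 for Nrg1 (edgeR adjusted p = 0.0446). Without the 4 oligodendrocyte-rich libraries these were -1.16, -0.79 and -0.64 (edgeR adjusted p = 0.107, 0.257 and 0.330), and without both macrophage-rich libraries Adam22 and Nfasc were not called either (edgeR adjusted p = 0.0667 and 0.115), nor was Sh3tc2 (edgeR adjusted p = 0.0680). Nrg1 kept its call in 2 of 15 fits that left out 1 library (without DN-mHCN2 apex replicate 3 or DN-mHCN2 base replicate 3), with adjusted p up to 0.110. Aatk, a kinase of axons and glia, had -0.56 (edgeR adjusted p = 0.0469), kept its call in 3 of 15 such fits (without control apex replicate 2, control base replicate 2 or DN-mHCN2 apex replicate 2) and was at -0.27 without the 4 (edgeR adjusted p = 0.646). Egr1, an immediate early transcription factor made by many cells, rose by 0.86 on the log2 scale (edgeR adjusted p = 0.0195), with 379 to 968 CPM in DN-mHCN2 apex and 645 to 982 CPM in DN-mHCN2 base, against 256 to 456 CPM in control apex and 326 to 487 CPM in control base. Without the 4 its change was 0.85, with the call lost. The Egr1 call was also lost without both DN-mHCN2 libraries rich in supporting cell or fibroblast markers.

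In the base alone, 6 of the 51 fell, Adam22, Sh3tc2, Nfasc and Gfap among them, beside 2.14% of all genes called and 1.3% called lower. These 4 calls were all lost without the oligodendrocyte-rich libraries, and also without both macrophage-rich ones. With single libraries left out, Adam22 kept its basal call in 5 of 7 fits (not without DN-mHCN2 base replicate 2 or 3), Nfasc in 2 (without control base replicate 2 or DN-mHCN2 base replicate 1), Sh3tc2 in 2 (without control base replicate 1 or 2) and Gfap in 1 (without control base replicate 2). Gfap, an intermediate filament of astrocytes and some Schwann cells, had at most 0.463 CPM in DN-mHCN2 base, against 18.4, 3.46, 16.6 and 19.8 CPM in control base, where the 3 high values are those of the oligodendrocyte-rich libraries. Without the 4 its basal change was -3.48 (edgeR adjusted p = 0.778). In truncated SK3 base Gfap had 139, 226 and 54.3 CPM, above every other library. Against truncated SK3, DN-mHCN2 had lower levels of 2 of the 51, Gfap being one (-5.37, edgeR adjusted p = 0.0160), beside 0.434% of all genes called lower. That Gfap call was lost without the 4 (-5.34, edgeR adjusted p = 0.104), without both macrophage-rich libraries (edgeR adjusted p = 0.135) and without truncated SK3 apex replicate 2 (edgeR adjusted p = 0.142). In truncated SK3 apex 1 of the 51 rose, beside 0.254% of all genes called, the glutamate transporter gene Slc1a3 (log2 fold change 1.06, edgeR adjusted p = 0.0362), at 209, 279 and 144 CPM against 112, 95.4, 118 and 80.1 CPM in control apex. The call held in 1 of 7 fits that left out 1 library (without truncated SK3 apex replicate 3), with adjusted p up to 0.332, and not without the 4 oligodendrocyte-rich libraries (edgeR adjusted p = 0.132) or with the compared groups alone (edgeR adjusted p = 0.129). The oligodendrocyte-rich libraries are all basal and so lie outside the apical groups compared here, but they enter the spread estimated from all 21 libraries. With the replicate block the edgeR adjusted p of Slc1a3 was 0.0990. The same truncated SK3 apex libraries held 1858, 3539 and 4049 CPM of 13 supporting cell markers, against 501, 808, 2304 and 583 CPM in control apex, and the part of supporting cells in the Slc1a3 values was not tested. Ndrg1, an abundant gene of the list, expressed in myelinating Schwann cells, was not called under DN-mHCN2 (-0.58 over both regions, edgeR adjusted p = 0.0627).

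How far the 32 genes varied over the 21 libraries differed widely. Dhh, the hedgehog ligand by which Schwann cells shape the perineurium, stayed within 72.1 to 177 CPM, Prx, which encodes periaxin, within 181 to 462 CPM and Plekhb1 within 189 to 471 CPM. Mag, by contrast, spanned 2.47 to 1172 CPM and Foxd3 0.407 to 24.96 CPM. The claudin gene Cldn19 ran from 26.4 to 114 CPM, with its lowest value in DN-mHCN2 base replicate 3. Ncmap, a small membrane protein of peripheral myelin, ran from 6.05 to 189 CPM. The fatty acid hydroxylase gene Fa2h had 36.7 to 311 CPM, Gjb1, the connexin Cx32, 33.7 to 237 CPM, Mal 185 to 770.0 CPM and Cmtm5 9.54 to 101 CPM. Lgi4, a secreted partner of ADAM22, had 1.02 to 27.9 CPM, and Adgrg6 had 2.22 to 23.3 CPM. Pmp2, a fatty acid-binding protein of peripheral myelin, had 1.54 to 61.8 CPM, but 86.67% of its 50-base stretches occur in an overlapping gene model, as do 78.03% of those of Cntf in Zfp91, so both counts are uncertain. Of the stretches of Dhh, 10.68% occur in Rhebl1, which overlaps it on the same strand, so part of its count is uncertain too. Cd9, Prx, Cldn19, Cnp, Lgi4, Adgrg6 and Dhh overlap genes on the opposite strand. Smart-seq2 libraries do not keep the strand, and reads of the partners cannot be told apart.

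The 32 genes only partly moved together. Against the mean of the other 31 (standardised log2 levels), Pearson's r over the 17 libraries that are not oligodendrocyte-rich was 0.807 for Prx, 0.797 for Ugt8a and 0.777 for Pmp22. It was -0.247 for Apoe, -0.014 for S100b and 0.272 for Sox10. These values describe the libraries and carry no test, since genes of one library share its depth and its cells. Among 9779 genes outside all lists, the 6 whose levels over the 21 libraries were most like the mean of the 32 included Plxnb3, Hsd17b12, Fxyd6, Hepacam and Ceacam10, with r of 0.780 to 0.874. Over the 17 libraries the r of these 5 was 0.680 to 0.863, highest for Fxyd6. Plxnb3 had 2.13 to 7.23 CPM in DN-mHCN2 base, against 49.6, 7.42, 45.2 and 43.2 CPM in control base. The 3 high values are those of the oligodendrocyte-rich libraries, and truncated SK3 base replicate 1, the fourth of these, was the highest library at 83.4 CPM.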

How the data were processed

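Read counts per gene were measured in 21 libraries and deposited by the authors as 1 table of whole-number counts that were not normalized. Reads were handled with Trimmomatic, HISAT2 and DESeq2 on GRCm38 or mm10, per the submitters' processing notes, with no versions; the counter and annotation are not given in the sources used here. Of 21878 rows, 3555 were at 0 throughout, and 27 carry dates as names.

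Counts were filtered with filterByExpr (14968 genes left), scaled by TMM and tested by quasi-likelihood in edgeR 4.0.16 (robust option, R 4.3.3), giving each group its own mean and using all 21 libraries. The 12 comparisons used Benjamini-Hochberg adjustment over all tested genes at 0.05. Standard errors follow from the F statistic. Levels are CPM, relative to the TMM-scaled total. Library totals ran from 10411634 to 15138780 counts, so that genes near 1 CPM rest on few reads.

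The 32 genes and all lists were chosen with earlier results of these data known. Values in every library are printed for called members, the 6 highest per kilobase and the highest of each role. From the wider list the called genes and the 3 highest were named, except that a few genes that met these rules are not reported here. The genes most alike are the 6 with the highest Pearson r among genes that average 10 CPM or more. Genes outside this rule are said to be so.

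Annotation was GENCODE on GRCm38, and promoters came from RefSeq (GRCm38.p6). Alternatives were DESeq2 1.42.0, limma 3.58.1 (voom with quality weights), RLE factors, other filters (none, or 10 CPM in 3 libraries), the compared groups alone, a replicate block and libraries left out. Those added after seeing the data dropped 4 libraries in which oligodendrocyte markers exceed 1000 CPM or took out a spline trend on GC content and length. The code was tested on simulated data. There, 49.3% of 2-fold changes were called for DN-mHCN2 against control over both regions, and 17.9% in the base. For 1.5-fold changes these shares were 10.4% and 1.49%. A gene that was not called may therefore still differ. Isoforms and the viral inserts were not analysed here.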

Additional observations from a re-analysis of the deposited data

Results flagged for a closer look

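In groups of 4 libraries, single values that stood far from the other 3 were looked for among the 32 glial genes, their sum and the sum of oligodendrocyte markers. Of 102 such groups 7 held one, and chance alone gives about 1 in 20. Control base replicate 3 was the high library for 4 genes: Drp2 at 211 CPM against 122 to 129.5 CPM in the other 3 libraries, Erbb3 at 43.6 CPM against 11.9 to 16.9 CPM, Cdh19 at 25.99 CPM against 13.9 to 14.6 CPM and Cntf at 5.16 CPM against 0.422 to 1.05 CPM. This library is one of the 4 rich in oligodendrocyte markers. Without it, the changes under DN-mHCN2 over both regions were still called for Drp2 and Cdh19, but not for Erbb3.

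Control base replicate 2 had 4711 CPM of Mbp, below 7528 to 7674 CPM in the other 3, all of them oligodendrocyte-rich, and 3.67 CPM of Foxd3, above 2.27 to 2.37 CPM. Control apex replicate 4 had 586 CPM of Apoe, above 137 to 211 CPM in the other 3, beside 563 CPM of macrophage markers against 53.9 to 69.3 CPM. The part of these markers in the flagged values was not tested.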

How the results depend on the processing

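Under DN-mHCN2 over both regions, 7 of the 32 genes were called. The count was 3 without both macrophage-rich libraries, 2 without both supporting cell- or fibroblast-rich libraries, 1 without the 4 oligodendrocyte-rich libraries, 1 with the GC and length trend taken out, and 4 to 8 with single libraries left out. In the base the 5 calls became 11 with DESeq2, 3 with limma-voom, 0 without the macrophage-rich libraries, 8 without the supporting cell- or fibroblast-rich ones, 0 without the oligodendrocyte-rich ones, 3 with the GC and length trend taken out, and 2 to 5 with single libraries left out. In the apex DESeq2 called 1 in place of 0.

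For truncated SK3 over both regions, the 1 call became 2 with DESeq2, limma-voom and the GC and length trend taken out, 0 without the oligodendrocyte-rich libraries, and 0 to 1 with single libraries left out. DESeq2 called 1 in its apex and 1 in its base, where the GC and length trend taken out also gave 1, each in place of 0. Also in place of 0, DESeq2 called 1 for base against apex in control, 2 under truncated SK3 and 1 in the interaction of region and DN-mHCN2, and leaving out the supporting cell- or fibroblast-rich libraries gave 1 (Cntf) for base against apex under DN-mHCN2. Between the constructs, the 2 calls became 7 with DESeq2, 1 with limma-voom, 0 with the compared groups alone, 1 without the macrophage-rich, 1 without the supporting cell- or fibroblast-rich and 0 without the oligodendrocyte-rich libraries, 1 with the GC and length trend taken out, and 1 to 4 with single libraries left out. The causes were not tested, beyond the smaller number of libraries in some fits.

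Whether replicate numbers pair the libraries cannot be told, since the animals behind each replicate are not given. Same-numbered libraries correlated in their deviations from the group mean at -0.129 to 0.230, with 5 of 48 pairs over 0.1. Differently numbered ones correlated at -0.268 to 0.184, with 10 of 135 pairs over 0.1. Of 21 libraries, 8 correlated best with their own number. In groups this small such values cannot settle the question. With the replicate block, 5 genes were called under DN-mHCN2 over both regions, 2 in the base and 1 between the constructs.

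No called fold change changed sign in any of these fits. Among genes that were not called, signs did change without the oligodendrocyte-rich libraries: Mag under DN-mHCN2 had 0.67 over both regions in place of -2.06 and 0.89 in the base in place of -4.58, and the median of the 10 myelin membrane genes over both regions was 0.11 in place of -0.30, with 4 of 10 below 0 in place of 9. Of 253 recomputed counts 202 stayed within 1.5 times of their value, which includes counts of 0 that stayed at 0. Most of the 12 comparisons had a count of 0 to begin with, so this share does not measure how well the calls held. Genes of a few CPM, such as Cntf and Foxd3, are limited by depth.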
